A study of Mus musculus with 6 samples.

Results

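The CDK inhibitor genes of immortalized mouse fibroblasts were examined, that is Cdkn1a, Cdkn1b, Cdkn1c, Cdkn2a, Cdkn2b, Cdkn2c and Cdkn2d. They were taken by gene name and make up 7 of the 41819 genes in the deposited table. Human poly(ADP-ribose) glycohydrolase (hPARG), the enzyme that degrades poly(ADP-ribose), was expressed in 3T3 cells, a mouse embryo fibroblast line, and poly(A) RNA was sequenced. The question addressed here is whether the RNA of these inhibitors differed when hPARG was induced. All 6 dishes came from a single clone carrying the lentiviral TetOne cassette for hPARG with mClover3 and a puromycin marker. The 3 control dishes received no doxycycline, and the 3 hPARG dishes received 500 ng/ml doxycycline for 72 h. No doxycycline-treated dish without the cassette was analysed here, so effects of doxycycline and of hPARG cannot be told apart. The labels speak of wells and the methods of dishes, and dish is used here. The dishes were split from 1 clone, so the tests measure the spread between dishes of that clone.

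CDK inhibitors bind cyclin-dependent kinases and hold cells in G1. The CIP/KIP genes Cdkn1a (p21), Cdkn1b (p27) and Cdkn1c (p57) act on several cyclin-CDK complexes, while the INK4 genes Cdkn2a (p16, and Arf from another reading frame), Cdkn2b (p15), Cdkn2c (p18) and Cdkn2d (p19) act on Cdk4 and Cdk6. Cdkn1a is a classical p53 target, Cdkn1c is an imprinted gene, and loss of the Cdkn2a-Cdkn2b locus is a known route by which mouse fibroblasts escape senescence.

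Total gene counts ran from 21619908 to 25263818 in a dish. Both dishes numbered 2 stood apart from the rest. Along the leading principal component of the log2 CPM values, with 42.0% of the variance, control dish 2 lay at 21.6 and hPARG dish 2 at 24.7, against -27.4 to -3.17 for the other 4 dishes. In these 2 dishes the deviation of a gene from its group mean rose with exon length across genes (Spearman's rho 0.530 in control dish 2 and 0.521 in hPARG dish 2), as a description, since genes are not independent replicates. In the other 4 dishes rho ran from -0.513 to -0.252, and deviations from a mean of 3 dishes are bound to oppose each other. The tests of the inhibitors, the counts of calls and the values of some listed genes are therefore also given without them. The fibroblast label was checked on 12 marker genes. Vim, the fibroblast intermediate filament gene, had 3745 ± 508 TPM (transcript share scaled to gene length; SD, n = 6), and Col1a2, a collagen I chain, had 850 ± 231 TPM. The matrix genes Dcn, Lum and Postn were near 0, with at most 15, 4 and 9 counts in a dish. Pdgfra had 13.1 TPM and Pdgfrb 1.65 TPM on average. Of the 9 tested markers, 4 had an unadjusted p under 0.05 by edgeR, against 3.95% of all tested genes, and 0 passed an FDR of 0.05. The 4 were Col1a1, Col3a1 and Thy1, higher with hPARG (log2 fold changes 0.58, 0.39 and 0.30), and Pdgfra, lower (-0.40). For each of them the groups did not overlap in CPM, against 9.62% of all tested genes. The epithelial markers summed to at most 1.05 TPM in a dish, the leukocyte markers to at most 1.85 TPM and the endothelial markers to at most 0.637 TPM.

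Of the 7 CDK inhibitor genes, Cdkn1a, Cdkn1b, Cdkn2c and Cdkn2d were expressed in every dish, and Cdkn1c, Cdkn2a and Cdkn2b were at or under the detection floor of 3 counts in every dish. Cdkn2a had 0 counts in 6 of 6 dishes. Over the 137912617 counts of all dishes, 0 counts allow a level of up to 0.0218 CPM (counts scaled to the library total) for Cdkn2a. Cdkn2b, the neighbour of Cdkn2a, had 1, 0 and 1 counts without hPARG and 0, 0 and 1 with hPARG, in dish order. Cdkn1c had 0, 1 and 3 counts without hPARG and 0, 1 and 0 with hPARG. The floor of 3 counts corresponded to between 0.119 and 0.139 CPM in a dish and covers counting error only. No fold change was computed for these 3 genes, and whether the RNA or the gene itself is missing was not tested.

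Promoter sequences are shown for the genes with the highest levels, Cdkn1a and Cdkn1b, beside those of the INK4 pair at or under the floor. RefSeq windows (GRCm38.p6) matched 6 of the 7 genes, and each line holds the 250 bases before an annotated start, 5′ to 3′ on the gene's strand. Capitals mark GGGCGG, the core of the GC box, searched on both strands.
Cdkn1a: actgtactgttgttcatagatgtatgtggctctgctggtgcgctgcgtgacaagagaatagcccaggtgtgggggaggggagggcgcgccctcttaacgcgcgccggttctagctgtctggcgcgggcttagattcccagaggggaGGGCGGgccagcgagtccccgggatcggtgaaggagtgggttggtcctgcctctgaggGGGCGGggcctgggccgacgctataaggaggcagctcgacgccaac
Cdkn1b: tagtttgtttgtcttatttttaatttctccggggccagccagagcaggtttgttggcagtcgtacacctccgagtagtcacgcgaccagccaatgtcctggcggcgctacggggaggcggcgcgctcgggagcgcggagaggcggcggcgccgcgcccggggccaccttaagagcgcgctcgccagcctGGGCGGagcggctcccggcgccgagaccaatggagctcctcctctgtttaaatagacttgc
Cdkn2a: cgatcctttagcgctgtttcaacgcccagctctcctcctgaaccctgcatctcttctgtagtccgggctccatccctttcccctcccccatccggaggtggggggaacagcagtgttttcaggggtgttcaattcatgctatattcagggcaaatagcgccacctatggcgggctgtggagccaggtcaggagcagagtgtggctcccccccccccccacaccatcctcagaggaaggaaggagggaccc
Cdkn2b: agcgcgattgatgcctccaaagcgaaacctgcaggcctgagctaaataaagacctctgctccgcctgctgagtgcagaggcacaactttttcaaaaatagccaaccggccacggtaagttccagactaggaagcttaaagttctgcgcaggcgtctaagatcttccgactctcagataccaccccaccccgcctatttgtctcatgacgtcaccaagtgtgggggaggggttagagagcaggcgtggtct
These windows lie at chr17:29093519-29093768 (plus strand), chr6:134920151-134920400 (plus strand), chr4:89282193-89282442 (minus strand) and chr4:89311033-89311282 (minus strand). The Cdkn1a and Cdkn2a windows each belong to the downstream one of 2 starts. The motif occurred 2 times in the Cdkn1a window, 1 time in the Cdkn1b window and 0 times in the Cdkn2a and Cdkn2b windows shown. The window of the upstream start of Cdkn2a, the start of the Arf transcript, held 2 matches, and that of the upstream start of Cdkn1a held 0. The windows of the expressed Cdkn2c held 3 matches at its upstream and 0 at its downstream start, and that of Cdkn2d held 3, so matches were found and missed on either side of the floor. Among all 32851 promoter windows of this length, 32.7% held the motif. A match is a description of the letters only.

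The surroundings of the undetected INK4 pair on chromosome 4 were then read. Cdkn2a spans chr4:89274471-89294653 and Cdkn2b chr4:89306299-89311039 (GRCm38). Within 1 Mb of the pair 55 genes had a row. Of these, 46 were at or under the floor in every dish, 39 had 0 counts throughout and 6 passed the filter on low counts. In the whole table, genes with 0 TPM in every dish begin at rank 16899 of 41819 by mean TPM, so genes without counts are common. Mtap, the methylthioadenosine phosphorylase gene that ends 93.4 kb from Cdkn2a, had 12905, 9623 and 10616 counts without hPARG and 10378, 9738 and 9820 with hPARG. From the other side of Mtap to the edge of the window, the 10 genes from Gm26490 to Zfp352 held 8 counts over all dishes together. Of these 10 genes, only Cdkn2a, Cdkn2b, Dmrta1 and Zfp352 are annotated as protein-coding. Dmrta1, a transcription factor gene of this stretch, had 0 counts in every dish. Toward lower coordinates Klhl9, a ubiquitin ligase adaptor gene, had between 2486 and 3144 counts in a dish, while all 17 genes named as interferons were at or under the floor.

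**Figure D1:**
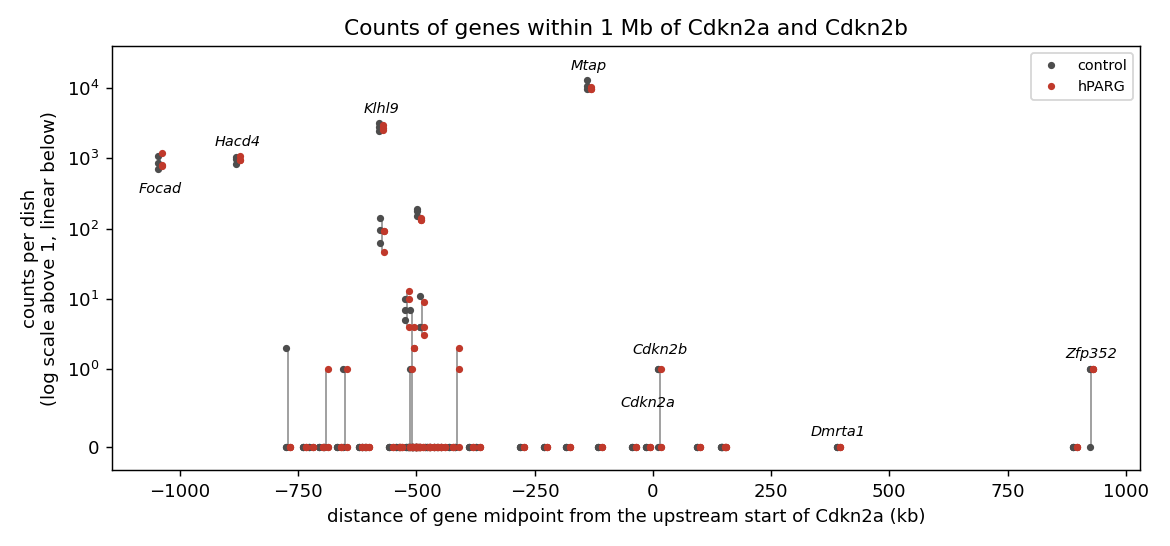
Counts in each dish (log scale above 1, linear below; grey lines span the 6 dishes) of the 55 genes within 1 Mb of Cdkn2a and Cdkn2b, by distance of the gene's midpoint from the upstream start of Cdkn2a in kb. Mtap had at least 9623 counts in every dish, whereas Cdkn2a had 0 and Cdkn2b at most 1.

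Cdkn1c lies in an imprinted domain on chromosome 7, and 10 genes of that domain were listed. Kcnq1ot1, the noncoding RNA of the domain, Phlda2 and H19 had 0 counts in every dish, Ascl2 had at most 2 and Kcnq1 at most 3. Slc22a18 had between 0 and 6 counts. Igf2, a growth factor gene, had 14, 0 and 0 counts without hPARG and 33, 0 and 46 with hPARG, with 0 counts in 3 of 6 dishes. Gm49394, annotated on the same strand, shares 62.8% of the exon bases of Igf2, and had 82, 98 and 93 counts without hPARG and 78, 169 and 66 with hPARG. Whether reads of one were counted for the other was not tested. Cd81, a tetraspanin gene, had 325 ± 25.1 TPM, Nap1l4, a histone chaperone gene, 124 ± 7.35 TPM and Tssc4 46.6 ± 3.60 TPM (SD, n = 6). Gm44732, annotated on the other strand, shares 30.7% of the exon bases of Cdkn1c, and it had 0 counts in every dish. The sources do not say whether counting used strand.

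The levels of the expressed inhibitors were compared per gene length. Cdkn1a had 234, 263 and 207 TPM without hPARG and 222, 241 and 192 TPM with hPARG. Cdkn1b followed with 57.2, 56.8 and 55.6 TPM without hPARG and 57.8, 59.4 and 54.0 TPM with hPARG. Cdkn1a was higher than Cdkn1b in 6 of 6 dishes, by 3.55 to 4.63-fold in TPM. Cdkn2d had 41.3, 40.2 and 36.4 TPM without hPARG and 48.5, 44.0 and 42.0 TPM with hPARG, under Cdkn1b in 6 of 6 dishes. Cdkn2c had 38.7, 41.3 and 30.8 TPM without hPARG and 37.0, 43.2 and 32.4 TPM with hPARG. Cdkn2d was above Cdkn2c in 5 of 6 dishes, with a TPM ratio from 0.975 to 1.31. The exception was control dish 2, and in the 4 dishes not numbered 2 the ratio ran from 1.07 to 1.31. Over all 6 dishes these 2 neighbours in the order thus do not differ beyond their spread, while Cdkn2d was above in 4 of 4 dishes without the dishes numbered 2. Cdkn1a held between 59.9% and 65.5% of the summed TPM of the 7 genes in a dish. By mean TPM, Cdkn1a ranked 659 and Cdkn1b 2697 among the 41819 genes.

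**Figure D2:**
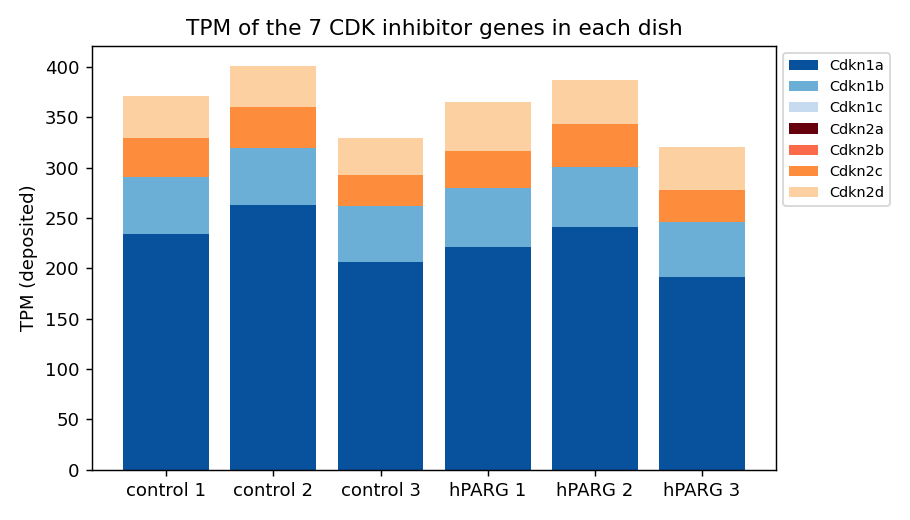
Stacked bars give the deposited TPM of the 7 CDK inhibitor genes in each of the 3 control and 3 hPARG dishes. Cdkn1a makes up the tallest segment, from 192 to 263 TPM, and Cdkn1c, Cdkn2a and Cdkn2b are too low to be seen.

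The 4 expressed inhibitors were compared between hPARG and control dishes with edgeR's quasi-likelihood test on the counts after TMM normalization, with the FDR taken over all 11509 genes tested. Of these 4 genes, 0 passed an FDR of 0.05, at any fold or over 2-fold, and 0 had an unadjusted p under 0.05, against 3.95% of all tested genes. With DESeq2 0 also passed an FDR of 0.05 at any fold, against 0.452% of all tested genes. The number with an unadjusted p under 0.05 was 1, Cdkn2d, without hPARG dish 2 (3.84% of all genes) and without both dishes numbered 2 (6.78% of all genes). It was also 1, Cdkn2d, by edgeR with a block on dish number (17.9% of all genes, 19.7% with a gene length correction added). Over all tested genes 10 were called over 2-fold, or 0.0869%. That number was 3 without hPARG dish 1, 5 without hPARG dish 3, 19 without both dishes numbered 2 and 22 with DESeq2. The groups overlapped in CPM for each of the 4 inhibitors, and 9.62% of all tested genes had groups that did not overlap. In these bulk samples, fewer cells with a transcript and less RNA per cell cannot be told apart.

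Cdkn1a, the p53-responsive inhibitor of cyclin-CDK complexes, had 284, 286 and 273 CPM without hPARG and 287, 270 and 260 CPM with hPARG. Its highest and its lowest dish were both in the hPARG group. The log2 fold change of hPARG against control was -0.04 with a standard error of 0.09 (FDR 0.999 by edgeR), and the 95% confidence interval in fold ran from 0.836 to 1.12. Without both dishes numbered 2 the log2 fold change was -0.02. AC167363.2, annotated on the other strand, shares 7.68% of the exon bases of Cdkn1a and had 0 counts in every dish.

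Cdkn1b, the inhibitor that accumulates in quiescent cells, had 117, 104 and 123 CPM without hPARG and 126, 112 and 123 CPM with hPARG. Both groups had their lowest value in dish 2. The log2 fold change was 0.07 with a standard error of 0.11 (FDR 0.999 by edgeR), and the interval in fold ran from 0.884 to 1.24. Without both dishes numbered 2 it was 0.06.

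Cdkn2c, an INK4 inhibitor of Cdk4 and Cdk6, had 46.5, 44.4 and 40.3 CPM without hPARG and 47.4, 47.9 and 43.4 CPM with hPARG. Dish 3 was the lowest in each group. The log2 fold change was 0.08 with a standard error of 0.10 (FDR 0.999 by edgeR), and the interval in fold ran from 0.898 to 1.25. Without both dishes numbered 2 it was 0.07.

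Cdkn2d, the other expressed INK4 gene, had 29.1, 25.4 and 27.9 CPM without hPARG and 36.4, 28.6 and 33.0 CPM with hPARG. The hPARG dish 2 lay below control dish 1, so the groups overlapped. That overlap rests on a dish numbered 2. Without both of them the control dishes, at 29.1 and 27.9 CPM, lay below the hPARG dishes, at 36.4 and 33.0 CPM. With 2 dishes a group such a separation is reached more readily than with 3. Its share over all tested genes is not given for these dishes, so no difference is read from it. Over all dishes the means were 27.5 ± 1.89 CPM and 32.7 ± 3.93 CPM (SD, n = 3). The log2 fold change was 0.25 with a standard error of 0.12 (FDR 0.999 by edgeR), and the interval in fold ran from 0.978 to 1.44. Without both dishes numbered 2 it was 0.29, with an FDR of 0.514. Of the 4 expressed inhibitors it had the largest fold change, and it did not pass the test.

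**Figure D3:**
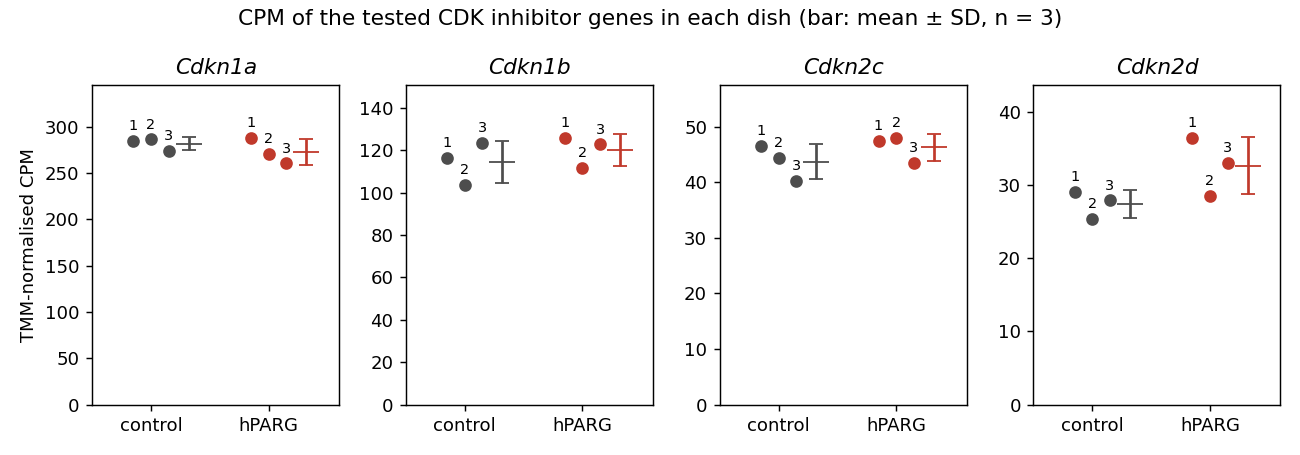
TMM-normalised CPM of the 4 expressed CDK inhibitor genes in each dish, numbered 1 to 3 within control and hPARG, with the mean and SD of each group (n = 3). For each gene the values of the groups overlap, and Cdkn2d has the largest fold change, with means of 27.5 and 32.7 CPM.

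The ratio of the highest to the lowest CPM over the 6 dishes was 1.10 for Cdkn1a, 1.21 for Cdkn1b, 1.19 for Cdkn2c and 1.43 for Cdkn2d, beside a median of 1.40 over all tested genes. For Cdkn1a, the member with the most counts, the tested genes nearest in values over the dishes were Clpb, Ube2m and Pold2. Their log2 CPM over the 6 dishes, after each gene's own mean was subtracted, differed from that of Cdkn1a by a root mean square of 0.01, 0.02 and 0.02, against a median of 0.18 over 11508 genes. Cdkn1a itself varied by a root mean square of only 0.05 around its mean, so genes with little variation lie close to it.

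The partners, regulators and downstream genes of the inhibitors were read from 6 lists holding 72 genes, of which 63 were tested. With edgeR 0 passed an FDR of 0.05, against 0.0869% of all tested genes, and 2 had an unadjusted p under 0.05, against 3.95%. With that share of calls, 0 in a list of this size or smaller is no result about the list. This holds for each list below. With DESeq2 1, Bbc3, passed an FDR of 0.05, at under 2-fold, as did 52 of all tested genes (0.452%) at any fold. Without both dishes numbered 2 and with edgeR, 0 of the listed genes passed, and the log2 fold changes were then -0.39 for Bbc3, -0.19 for Foxo3 and -0.05 for Cdk6. The median log2 fold change of the 63 genes was -0.05, against 0.00 over all tested genes. Of the 63 genes 19 had positive and 44 negative log2 fold changes, against 5863 and 5646 of all tested genes. The genes of a list are not independent and no set test was run, so the signs are a description only. Groups that did not overlap were seen for 1 gene higher in hPARG, Cd81, and for 5 genes lower, Bbc3, Trp53, Aen, Bmi1 and Dtl, of which Aen, Bmi1 and Dtl are named after their values were seen. The share over all tested genes was 9.62%.

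The kinases and cyclins that the inhibitors bind were all expressed, and 0 of 12 passed the test (3 with positive and 9 with negative log2 fold changes, median -0.04). Cdk4, the kinase bound by INK4 proteins, had 589 ± 47.0 TPM, Ccnd1 (cyclin D1), its partner, had 539 ± 134 TPM, and Ccnb1, the mitotic cyclin B1, had 182 ± 9.37 TPM (SD, n = 6). On the other strand, Tspan31 shares 19.7% of the exon bases of Cdk4, and LTO1 shares 23.4% of those of Ccnd1. Whether their reads were counted for Cdk4 or Ccnd1 was not tested. Cdk6, the other INK4 target kinase, was at 12.4 ± 3.85 TPM. The largest log2 fold changes were -0.17 for Ccnd1, 0.14 for Ccnd2 and -0.13 for Cdk6. Without control dish 2 the value for Ccnd1 was -0.04 and that for Ccnd2 was 0.32, and without hPARG dish 2 they were -0.31 and 0.004. The value for Cdk6 turned positive without control dish 2 (0.11) and without hPARG dish 1 (0.005).

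Of the pocket proteins and E2F factors, through which the kinases act on transcription, 0 of 10 tested passed (5 positive and 5 negative, median 0.01). E2f4, a repressing E2F, had 153 ± 25.3 TPM, E2f1, an activating one, 77.8 ± 13.2 TPM and Rbl1 (p107) 53.3 ± 4.59 TPM. Rb1, the retinoblastoma gene, was lower, at 5.71 ± 1.69 TPM (SD, n = 6). Rb1 had 255, 300 and 180 counts without hPARG and 243, 394 and 273 with hPARG, with a log2 fold change of 0.35 ± 0.20 (SE). The log2 fold changes were -0.12 for E2f4 (-0.05 without control dish 2) and 0.09 for E2f1.

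Of the genes that regulate the inhibitors, 0 of 19 tested passed (4 positive and 15 negative, median -0.07). Mdm2, the ubiquitin ligase of p53, was the highest at 1099 ± 82.2 TPM, followed by Cks1b, which serves in p27 degradation, at 299.8 ± 12.3 TPM and by Trp53, the p53 gene, at 295 ± 47.9 TPM (SD, n = 6). Myc, a repressor of Cdkn1a and Cdkn2b transcription, had 4392, 5221 and 4054 counts without hPARG and 3216, 4166 and 3170 with hPARG. Its log2 fold change was -0.34 ± 0.13 (SE) with an FDR of 0.999 by edgeR. Ets2, an activator of Cdkn2a, had a log2 fold change of -0.32 (-0.18 without control dish 2) and Foxo3, an activator of Cdkn1b, of -0.28. The value for Foxo3 turned positive, 0.02, without control dish 2. With a block on dish number, Myc and Ets2 passed by edgeR (FDR 0.00834 and 0.0195). Only the dishes numbered 2 were clearly alike, as given at the end, and the methods name no pairing. The test without a block was therefore kept.

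Of the p53 targets other than Cdkn1a, 0 of 11 tested passed with edgeR (1 positive and 10 negative, median -0.09). Mdm2 is counted here and among the regulators. Besides Mdm2, Ccng1, the cyclin G1 gene, had 335 ± 25.3 TPM and Bax, a cell death effector, 270 ± 24.8 TPM (SD, n = 6). Bbc3, the gene of the cell death protein Puma, had 907, 977 and 818 counts without hPARG and 608, 639 and 614 with hPARG. Each hPARG dish lay below each control dish in CPM. The log2 fold change was -0.49 ± 0.10 (SE) with an FDR of 0.419 by edgeR. DESeq2 placed the gene under an FDR of 0.05, as did edgeR with a block on dish number (FDR 0.00602). Sesn2, a stress-induced gene, had a log2 fold change of -0.25 and Trp53inp1 of -0.17. Pmaip1, the gene of Noxa, named after its values were seen, had 0 counts in every dish.

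Of the proliferation genes, 0 of 8 passed (4 positive and 4 negative, median 0.00). Pcna, the DNA polymerase clamp, had 824 ± 63.2 TPM, Top2a, the topoisomerase of dividing cells, 231 ± 40.8 TPM and Mcm5, a replication helicase subunit, 203 ± 19.7 TPM (SD, n = 6). Mki67, the Ki-67 gene, had 4215, 5633 and 3308 counts without hPARG and 3699, 7578 and 4538 with hPARG, the highest value of each group being in dish 2, and a log2 fold change of 0.29 ± 0.25 (SE). That value was 0.01 without hPARG dish 2 and 0.52 without control dish 2. The log2 fold changes of Mcm2 and Plk1 were -0.14 and 0.10. Of the imprinted neighbours of Cdkn1c, 0 of 4 tested passed, with log2 fold changes of 0.17 for Cd81 and -0.09 for Tssc4 (from -0.205 to -0.002 with 1 dish left out). The fitted log2 fold change of Igf2, 2.57 ± 1.36 (SE; FDR 0.999 by edgeR), was the largest of that list and rests on the few counts given above, of a gene that shares most of its exon bases with Gm49394.

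**Figure D4:**
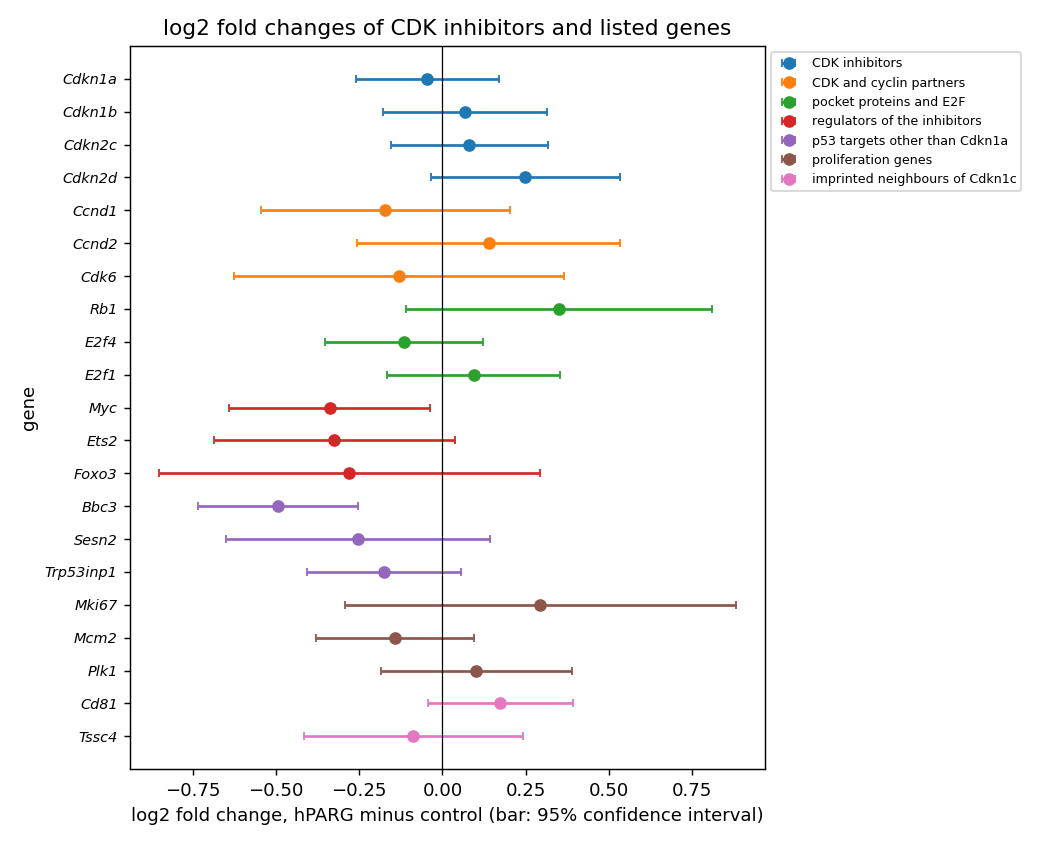
log2 fold changes of hPARG against control (points) with 95% confidence intervals (bars) for the 4 expressed CDK inhibitors and for the listed genes with the largest changes other than Igf2 (2.57, left out for its scale), coloured by list. The inhibitors lie between -0.04 and 0.25, and of the genes drawn Bbc3 lies farthest from 0 at -0.49.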

How the data were processed

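Poly(A) RNA of 6 dishes was sequenced as paired-end reads, which the authors trimmed and mapped to GRCm38 in CLC Genomics Workbench. The authors deposited whole-number counts per gene, without normalization, and RPKM and TPM values made from them in that software; the library total behind the RPKM is not stated. The counts were tested, the deposited TPM gave levels between genes, and the deposited RPKM only ordered listed genes. The 6 CPM columns, and the columns of the authors' own comparison (fold changes, p-values), were not used.

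Genes kept by filterByExpr (minimum count 10) were TMM-normalized and compared without a block by the glmQLFTest function (edgeR 4.0.16 under R 4.3.3, with limma 3.58.1), and called at a Benjamini-Hochberg FDR under 0.05 and over 2-fold. Log2 CPM used a prior count of 2. The code was tested on simulated data. Those data had the smaller spread of a fit with a block and no effect of dish number or gene length. They therefore do not show how the test behaves with the dishes numbered 2. Alternatives, among them DESeq2 1.42.0, other scalings and filters and each dish left out, are given at the end. With 3 dishes a group, the number of dishes and the spread between them limit precision.

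The members and lists were chosen with earlier results of these data known. Named genes are all members and, from each list, those past the FDR, the 3 with the highest RPKM and the 3 with the largest fold changes, besides markers and neighbours; a few others are said to be named after their values were seen. Coordinates and overlaps come from GENCODE M21.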

Additional observations from a re-analysis of the deposited data

How the results depend on the processing

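Over 14 alternative settings, the log2 fold changes of the 4 expressed inhibitors kept their sign and 0 of the 4 passed an FDR of 0.05. They ranged from -0.09 to -0.01 for Cdkn1a, 0.00 to 0.12 for Cdkn1b, 0.03 to 0.13 for Cdkn2c and 0.16 to 0.34 for Cdkn2d. With a floor of 10 counts 3 members were again at or under it. The number of genes called over 2-fold, 10, became 22 with DESeq2, 16 with no filter, 19 without both dishes numbered 2 and 3 to 13 with 1 dish left out. At any fold 52 genes passed the FDR with DESeq2, 1 of them listed, Bbc3 (FDR 0.0187; 0.00403 to 1.00 over the settings). With 1 dish left out, the log2 fold change of Cdk6 ran from -0.295 to 0.11 and that of Foxo3 from -0.49 to 0.019. The ranges were 0.01 to 0.52 for Mki67, 0.18 to 0.53 for Rb1, 0.01 to 0.15 for E2f1, 0.01 to 0.17 for Plk1, -0.17 to -0.05 for E2f4, -0.45 to -0.18 for Ets2, -0.21 to -0.09 for Mcm2, -0.38 to -0.09 for Sesn2 and 1.90 to 7.76 for Igf2, whose upper value has the remaining control dishes at 0. Igf2 has no value where at least 10 counts were asked in every dish. The cause of these shifts was not tested.

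With the replicate block, 23 genes were called over 2-fold, and 26 with a gene length correction added. At any fold 330 (2.87%) and 469 (4.08%) of the tested genes passed the FDR, of which listed genes were 3 (Bbc3, Ets2 and Myc) and 7 (with Cd81, Ets1, Foxo3 and Mki67), and the FDR of Cdkn2d was 0.0967 and 0.0516, its unadjusted p being under 0.05 in both, as for 17.9% and 19.7% of the tested genes. Deviations from group means of same-numbered dishes correlated across genes at 0.0963, 0.610 and 0.168 for numbers 1 to 3. Of 6 dishes, 2 correlated best with their own number. The dishes numbered 2 thus shared more than a number, while numbers 1 and 3 showed little pairing, so the main test has no block. The common biological coefficient of variation, a measure of spread between dishes, was 0.148 without the block and 0.0615 with it. Without a block this larger spread stays in the test and widens its intervals. The depth leaves levels under the floor of 3 counts undetectable.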

Other observations

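The high level of Mdm2 was followed to its neighbours on chromosome 10, a choice made after its values were seen. Of 49 genes within 1 Mb of Mdm2, 36 were at or under the floor of 3 counts in every dish and 12 were tested. Mdm2 had between 33877 and 38929 counts in a dish and ranked 135 by mean TPM among 41819 genes. Cct2, a chaperonin subunit gene 625 kb away, had a mean of 3999 TPM over the 6 dishes, and Yeats4, 464 kb away, had 584 TPM. On the other side, Nup107, a nuclear pore gene 39.9 kb away, had 411 TPM and Rap1b, 103 kb away, 253 TPM. The nearest tested neighbour, Slc35e3, 22.9 kb away, had 118 TPM. Of the other tested genes, Frs2 had 118, Cpsf6 77.7, Rab3ip 25.4, Lyz2 10.5 and Gm32802 0.779 TPM. Cpm, which ends 1.52 kb from Mdm2, had between 1 and 11 counts in a dish, and Mdm1, 431 kb away, had 11.3 TPM.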
